A study of Homo sapiens with 6 samples.

Results

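Among the mature miRNAs listed for exosomes of MDA-MB-231 cells were 3 annotations whose hairpin genes lie in, or opposite to, nuclear relatives of mitochondrial genes: hsa-miR-4461, hsa-miR-4485 and hsa-miR-1973. They were chosen by name, as annotations whose hairpins resemble mitochondrial transcripts, so a likeness in sequence or location follows from the choice. All 3 of them were found among the 503 miRNAs of every count table. MDA-MB-231 is an established human breast carcinoma cell line. The shMCU libraries came from stable clones with a hairpin RNA against MCU, and the shNC libraries from stable clones with the control hairpin, with 3 exosome libraries in each group. Both were cultured for 48 h in medium whose 10% serum was exosome-free. How many clones were used, and whether the replicates were separate cultures, is not stated, so the p-values below reflect library-to-library spread, which may be purely technical.

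MCU is the pore-forming subunit of the uniporter that carries calcium into the mitochondrial matrix. Mitochondria transcribe their own circular chromosome on both strands into long precursors, which are cut into ribosomal RNAs, transfer RNAs and messenger RNAs. Copies of mitochondrial DNA have also been inserted into nuclear chromosomes during evolution. A short read from such a sequence can match a nuclear miRNA annotation and a mitochondrial transcript alike.

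The sequences show how close 2 of the annotations are to mitochondrial RNA. RefSeq sequences (GRCh38.p14) were found for 2 of the 3 annotations. None was found for miR-4461, so it was not compared with the mitochondrial chromosome. For miR-4485, whose name in the count tables gives no arm, the table held 1 mature product, miR-4485-3p. The mature sequences are shown to compare them with each other and with the ribosomal RNA beneath, and capitals mark the seed (bases 2 to 8).
miR-4485: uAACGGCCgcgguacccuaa
miR-1973: aCCGUGCAaagguagcaua
Below, capitals mark the joint stretch of both in the large mitochondrial ribosomal RNA, on the plus strand of the mitochondrial chromosome (GRCh38, chrM:2548-2615), as GENCODE release 29 gives the transcript.
MT-RNR2: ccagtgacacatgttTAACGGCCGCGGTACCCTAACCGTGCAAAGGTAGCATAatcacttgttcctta

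The mature sequences of miR-4485 and miR-1973 were end-to-end neighbours in 1 mitochondrial transcript. miR-4485, of 20 bases, matched MT-RNR2 without a mismatch from 2563 to 2582, and miR-1973, of 19 bases, from 2582 to 2600, both in the sense direction. They shared 1 base, and together they covered 38 bases. The seeds AACGGCC and CCGUGCA differed from each other, and 0 of the other listed miRNAs with a sequence had either of them.

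The same search was run over every listed miRNA with a RefSeq sequence, 440 of 503, against the 15357 bases of the annotated mitochondrial transcripts on both strands. miR-4461 was not among the 440, so whether it matches was not examined. With at most 1 mismatch, 3 of the 440 (0.682%) matched over their full length, and the number was 3 with 0 and with 2 mismatches as well. The match besides miR-4485 and miR-1973 was miR-4463, a short annotation on chromosome 6 (75428446 to 75428462, plus strand, GRCh38.p14). It is shown because its sequence matches the strand opposite to MT-ND5, the gene of a subunit of respiratory complex I.
miR-4463: gAGACUGGgguggggcc
This sequence of 17 bases matched at 13051 to 13067 of the mitochondrial chromosome. It had 1, 0 and 0 counts in shMCU replicates 1, 2 and 3, against 5, 1 and 1 counts in shNC replicates 1, 2 and 3, too few to compare.

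The hairpin genes lie in nuclear relatives of mitochondrial genes. On GRCh38, MIR4485 spans 10508270 to 10508326 of chromosome 11 (minus strand) within an exon of MTRNR2L8, and MIR1973 spans 116299725 to 116299768 of chromosome 4 (plus strand) within an exon of MTRNR2L13. Both host genes are named as relatives of MT-RNR2. MIR4461 spans 134928039 to 134928112 of chromosome 5 (plus strand), inside a PCBD2 intron and opposite to MTND4LP30, a processed pseudogene on the minus strand from 134928030 to 134928326. That pseudogene is named for MT-ND4L, which codes for another complex I subunit, and MIR4461 is therefore antisense to it. The hairpin of MIR4485 is shown with its mature part in capitals.
MIR4485: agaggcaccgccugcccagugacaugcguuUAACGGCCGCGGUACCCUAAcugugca

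Over its 57 bases this hairpin differed from MT-RNR2 at 4 positions, an identity of 93.0%. Counted from the hairpin's 5′ end, with T for U and the hairpin's base first, the differences were T25C, G26A, C27T and T52C. None lay in the 20 mature bases (0 mismatches), so a read of exactly that sequence cannot be told apart between the nuclear and the mitochondrial gene. Position 52 of the hairpin corresponds to base 3 of miR-1973, so the nuclear MIR4485 locus does not hold the first bases of miR-1973 unchanged.

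**Figure D1:**
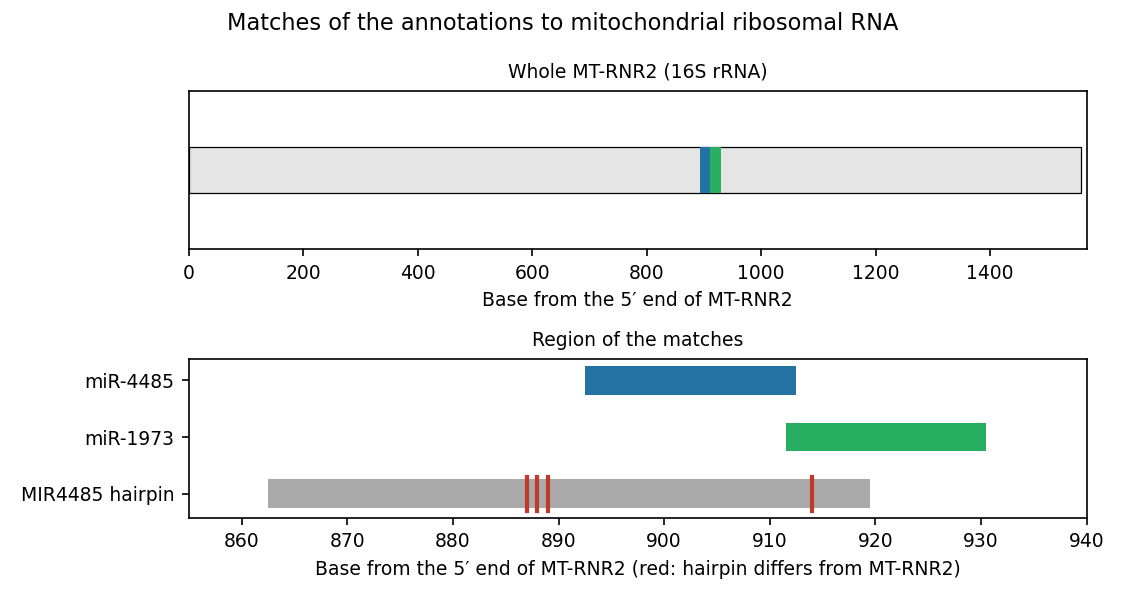
Position of the mature sequences and of the MIR4485 hairpin along MT-RNR2, in bases from its 5′ end; the upper panel shows the whole transcript of 1559 bases and the lower panel the region of the matches. miR-4485 covers bases 893 to 912 and miR-1973 bases 912 to 930, and red lines mark the 4 bases at which the hairpin differs from MT-RNR2.

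The libraries were shallow, with totals of 12859 to 14692 counts in shMCU and 11563 to 47863 counts in shNC. A count of 3 is about the upper 95% bound for a count of 0, and two-sided exact 95% intervals reach higher. It corresponded to 204 to 233 CPM (counts scaled so that all listed miRNAs of a library sum to 1000000) in shMCU libraries and 62.7 to 259 CPM in shNC libraries. On the first principal component of log2 CPM, which held 45.9% of the variance, shMCU replicate 3 stood apart: it scored 6.22, and the remaining libraries scored -2.62 to 1.96. The same library held 103663 CPM of miR-122-5p, the dominant liver miRNA, against 12281 to 37231 CPM in the rest. Results of the 3 annotations that rest on shMCU replicate 3 are therefore given with and without it. The part of miR-122-5p in them was not tested. Small RNA tables do not hold the MCU transcript, so the knockdown was not checked here.

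The 3 annotations differed widely in level. Over all libraries miR-4461 had 329 counts, miR-4485 had 120 and miR-1973 had 3, together 452 of 119791. By mean CPM they ranked 35, 67 and 253 among the 503 listed miRNAs. The neighbours in MT-RNR2 were thus far apart, with 120 counts of miR-4485 and 3 counts of miR-1973. In the most abundant miRNA of the tables, miR-21-5p, there were 23129 counts.

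**Figure D2:**
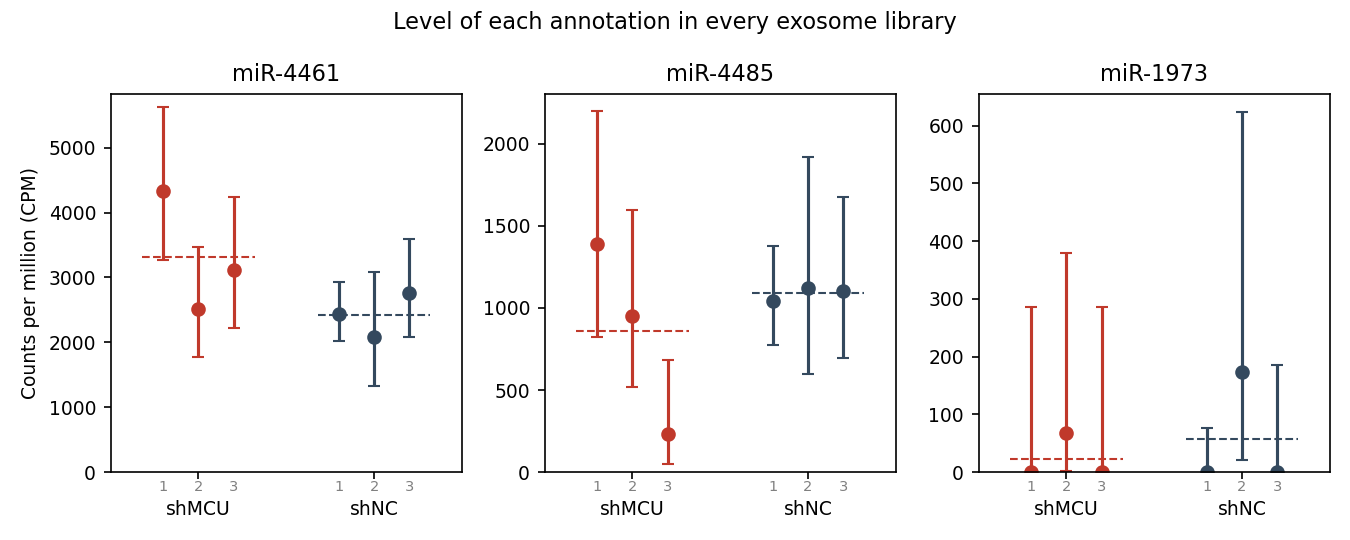
Level of miR-4461, miR-4485 and miR-1973 in each library, in CPM; points are libraries numbered by replicate, bars are exact 95% binomial intervals (counting error only) and dashed lines are group means. shMCU replicate 1 is highest for miR-4461 and miR-4485, and shMCU replicate 3 is lowest for miR-4485.

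miR-4461 was the most abundant of the 3 and the one with the higher fitted level in shMCU exosomes. It had 4331, 2518 and 3111 CPM in shMCU replicates 1, 2 and 3 (56, 37 and 40 counts), against 2444, 2076 and 2766 CPM in shNC replicates 1, 2 and 3 (117, 24 and 55 counts). The highest value was that of shMCU replicate 1, and the groups overlapped, since shMCU replicate 2 lay below shNC replicate 3. The mean was 3320 ± 924 CPM in shMCU and 2429 ± 345 CPM in shNC libraries (SD, n = 3 each), a difference of 891 CPM (two-sided exact permutation test, p = 0.2). The smallest p that 20 arrangements allow is 0.1, so this test could not reach 0.05. Counting error alone would give an SD of about 499 CPM in shMCU and 351 CPM in shNC libraries.

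In the test across all miRNAs, miR-4461 did not pass. The fitted log2 fold change, 0.64 ± 0.29 (SE), equals a 1.56-fold higher level (95% interval 1.00 to 2.42). With edgeR's quasi-likelihood test the adjusted p (Benjamini-Hochberg) was 0.70 and the unadjusted p was 0.049. Of the 79 miRNAs tested, 0 (0%) passed an adjusted p of 0.05, and 3 (3.8%) had an unadjusted p under 0.05, miR-4461 among them. DESeq2 called 1, miR-122-5p, named here after its value was seen. DESeq2 was run on all libraries only, so this call was not examined without shMCU replicate 3. miR-4461 was fitted higher, as were 48.1% of the miRNAs tested, and stood in position 72 of 79 from the lowest fold. Its log2 fold change was 0.55 without shMCU replicate 3, and 0.44 with library totals in place of TMM scaling, a composition correction.

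Scaling changed whether the groups of miR-4461 overlapped. After TMM scaling it had 4108, 2725 and 3804 CPM in shMCU replicates 1, 2 and 3, against 2181, 1904 and 2693 CPM in shNC replicates 1, 2 and 3. Every shMCU library then lay above every shNC library, with shMCU replicate 2 and shNC replicate 3 close together (two-sided p = 0.1 by exact permutation, as low as 20 arrangements can give). That pattern was seen for 8.86% of the 79 tested miRNAs, and the opposite one, every shMCU library below, for 6.33%. On unscaled CPM the shares were 1.27% above and 10.1% below, and miR-4461 was in neither.

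miR-4485, whose mature sequence lies in MT-RNR2 in the sense direction, had nearly one level in the shNC exosomes and a wide spread in the shMCU exosomes. It had 1392, 953 and 233 CPM in shMCU replicates 1, 2 and 3 (18, 14 and 3 counts), against 1045, 1124 and 1106 CPM in shNC replicates 1, 2 and 3 (50, 13 and 22 counts). shMCU replicate 1 lay above and shMCU replicates 2 and 3 lay below all shNC libraries. The mean was 859 ± 585 CPM in shMCU and 1092 ± 41.8 CPM in shNC libraries (SD, n = 3 each; two-sided exact permutation test, p = 0.7). Counting error alone would give an SD of about 252 CPM in shMCU and 241 CPM in shNC libraries, so the shNC libraries lay closer together than counting error alone would place them on average.

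The fitted change of miR-4485 was small and its direction rested on 1 library. The fitted log2 fold change was -0.17 ± 0.50 (SE), or 0.89-fold (95% interval 0.41 to 1.93), and the quasi-likelihood test of edgeR gave an adjusted p of 0.92. It was fitted lower, as were 51.9% of the miRNAs tested, and stood in position 26 of 79. Without shMCU replicate 3 the log2 fold change was 0.17, and the mean over the other shMCU libraries was 1173 CPM. The 3 counts in shMCU replicate 3 had an exact 95% interval from 48.1 to 682 CPM. It lies below the intervals of shMCU replicate 1 (825 to 2199 CPM), shNC replicate 1 (775 to 1377 CPM) and shNC replicate 3 (694 to 1675 CPM). It overlaps those of shMCU replicate 2 (521 to 1598 CPM) and shNC replicate 2 (599 to 1922 CPM). These intervals cover counting error only, since the counts do not separate PCR copies from original molecules.

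**Figure D3:**
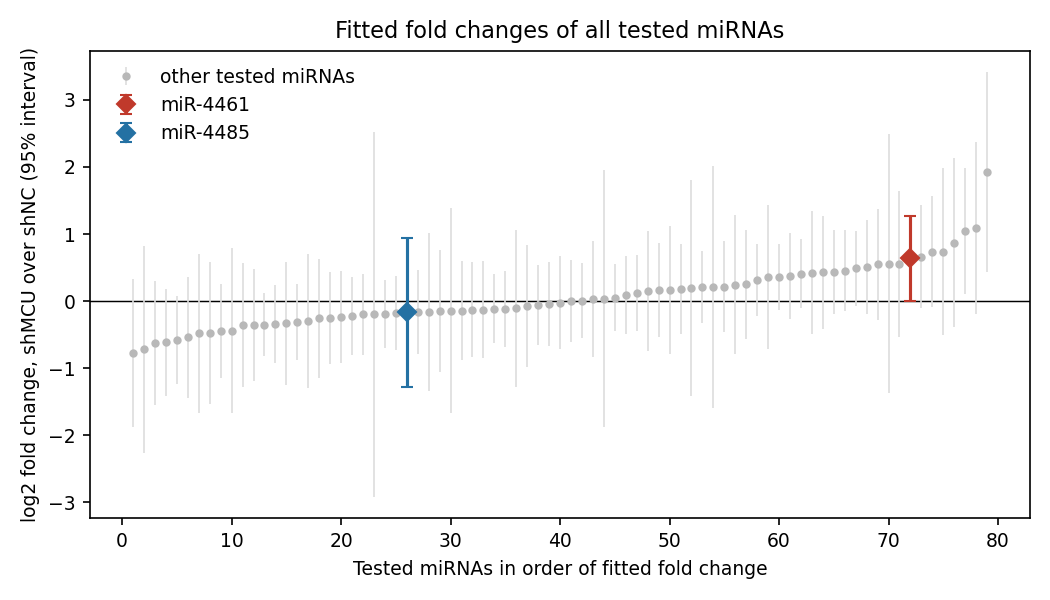
Fitted log2 fold change of shMCU over shNC for the 79 tested miRNAs in order of size, with 95% intervals from edgeR; miR-4461 and miR-4485 are drawn in colour and the others in grey. miR-4461 stands at 0.64 in position 72 and miR-4485 at -0.17 in position 26; neither passes the adjusted test.

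miR-1973 was at the limit of detection. It had 0, 1 and 0 counts in shMCU replicates 1, 2 and 3, against 0, 2 and 0 counts in shNC replicates 1, 2 and 3. The exact 95% intervals of the counts of 0 reached 285 and 287 CPM in shMCU replicates 1 and 3, and 77.1 and 186 CPM in shNC replicates 1 and 3. Summed over each group, there was 1 count of 40481 in shMCU, or 24.7 CPM with an exact 95% interval from 0.625 to 138, and there were 2 counts of 79310 in shNC, or 25.2 CPM (3.05 to 91.1). A difference was not detectable at this depth. The annotation fell under the filter on low counts, and with no filter edgeR's quasi-likelihood test gave it an adjusted p of 0.99.

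The share of all miRNA counts held by the 3 annotations together was small in each library. It was 0.572%, 0.354% and 0.334% in shMCU replicates 1, 2 and 3, against 0.349%, 0.337% and 0.387% in shNC replicates 1, 2 and 3. The mean was 0.420% ± 0.132 in shMCU and 0.358% ± 0.0261 in shNC libraries (SD, n = 3 each), and the groups overlapped. The exact 95% intervals (counting error only) of shMCU replicates 2 and 3 and shNC replicates 2 and 3 overlapped that of the highest library. Only shNC replicate 1, with an interval from 0.298% to 0.406%, lay wholly below it. The highest library was shMCU replicate 1, with an interval from 0.450% to 0.718%. The difference of 0.0624 percentage points was -0.0136 without that library and 0.105 without shMCU replicate 3. Such shares cannot tell a higher amount of these RNAs from a lower amount of all the others.

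No pair of the 3 annotations was correlated past the threshold over the libraries, and the pairs with miR-1973 could not pass it. Between miR-4461 and miR-4485, over the 6 libraries, Pearson's r of CPM was 0.18 (exact permutation p = 0.81, adjusted p = 0.87 over 3 pairs) and Spearman's rho was 0.029 (exact permutation p = 1, adjusted p = 1). Without the 2 libraries farthest from the median of miR-4461, shMCU replicate 1 and shNC replicate 2, r was -0.83. Without shMCU replicate 3 alone r was 0.85, so sign and size depended on which libraries were included. After TMM scaling r was -0.17, or 0.92 without shMCU replicate 3. The points share library, depth and the denominator of the CPM.

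The pairs with miR-1973 rested on its 3 counts. With miR-4461, r was -0.58 (exact permutation p = 0.13, adjusted p = 0.40) and rho was -0.68 (exact permutation p = 0.2, adjusted p = 0.6), and r was -0.42 without the 2 farthest libraries and -0.57 without shMCU replicate 3. With miR-4485, its neighbour in MT-RNR2, r was 0.17 (exact permutation p = 0.87, adjusted p = 0.87) and rho was 0.10 (exact permutation p = 0.87, adjusted p = 1). Here r was 0.24 without the 2 libraries farthest from the median of miR-4485, shMCU replicates 1 and 3, and -0.23 without shMCU replicate 3 alone.

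The balance between miR-4485 and miR-4461 can be read within a library, free of the denominator. miR-4485 made up 24.3%, 27.5% and 6.98% of the sum of both in shMCU replicates 1, 2 and 3, against 29.9%, 35.1% and 28.6% in shNC replicates 1, 2 and 3. Every shMCU library was below every shNC library, by a narrow margin between shMCU replicate 2 and shNC replicate 3, whose exact 95% intervals were 15.9% to 41.7% and 18.8% to 40.0%. Of 3081 pairs of tested miRNAs, 9.28% had a ratio with no overlap between the groups. The mean was 19.6% ± 11.0 in shMCU and 31.2% ± 3.46 in shNC libraries (SD, n = 3 each). This comparison was chosen after seeing the data and has no test; the difference of -11.6 percentage points was -5.33 without shMCU replicate 3.

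**Figure D4:**
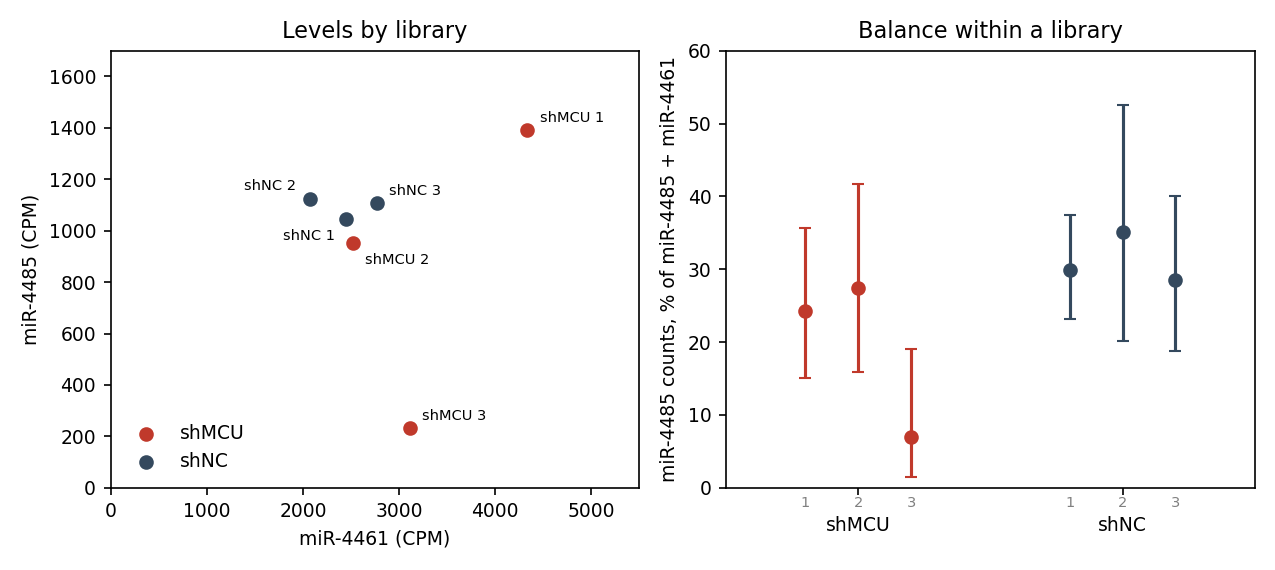
Left, CPM of miR-4485 against CPM of miR-4461 in the 6 libraries; right, counts of miR-4485 as a percentage of the counts of both in each library, with exact 95% binomial intervals (counting error only). The shNC libraries lie close together on the left, while shMCU replicate 1 is high for both and shMCU replicate 3 is low for miR-4485 alone, at 6.98% on the right.

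The tested miRNAs most like each tested annotation across the 6 libraries were found by Pearson's r of log2 CPM, as a description. They are the highest of 78 values of r, picked from these same data, and were not tested. For miR-4461 they were miR-378a-3p (r = 0.80), from an intron of a gene for a regulator of mitochondrial biogenesis, its relative miR-378d (r = 0.65) and miR-10a-5p (r = 0.60), a HOX-cluster miRNA. Without shMCU replicate 3 these r were 0.79, 0.64 and 0.69. The r of miR-4461 with miR-4485 was -0.039, in position 44 of 78, but it was 0.78 without shMCU replicate 3.

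For miR-4485 the most alike were miR-21-5p (r = 0.98), an oncogenic miRNA, miR-20a-5p (r = 0.96), of the miR-17/92 cluster, and miR-423-3p (r = 0.95). All of them were lowest in shMCU replicate 3: miR-21-5p had 216009, 182753 and 114939 CPM in shMCU replicates 1, 2 and 3, against 195349, 220617 and 214846 CPM in shNC replicates 1, 2 and 3. Without shMCU replicate 3 the r were 0.73, 0.72 and 0.63. The median r of miR-4485 with all 78 others was 0.45, against -0.0094 for miR-4461.

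Nuclear-encoded miRNAs linked to mitochondria are a separate kind: they are transcribed from nuclear genes and act on mitochondrial proteins or metabolism. Of 10 listed, 6 were tested and 0 passed; 3 were fitted higher and 3 lower, with a median log2 fold change of 0.02, against -0.02 over all 79. Without shMCU replicate 3, 2 of the 6 were fitted higher and the median was -0.10. With library totals alone 1 of the 6 was fitted higher, as were 24 of all 79, whose median log2 fold change was then -0.24. miR-25-3p, known to target MCU, had 13672 ± 2661 CPM in shMCU and 14639 ± 3421 CPM in shNC libraries (SD, n = 3 each), with a fitted fold of 1.09 (95% interval 0.74 to 1.61). That fold is above 1 because of TMM scaling; its log2 fold change was -0.11 with library totals alone. miR-378a-3p had 14857 ± 1423 CPM in shMCU and 13442 ± 1800 CPM in shNC libraries, a fold of 1.28 (0.91 to 1.80). Its log2 fold change of 0.36 was 0.22 without shMCU replicate 3 and 0.14 with library totals alone. miR-23a-3p, which targets glutaminase, had a fold of 0.85 (0.57 to 1.28).

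Annotations that resemble RNAs of nuclear genes, such as ribosomal, transfer or small nuclear RNA, gave a further comparison. Of 11 listed, 4 were tested and 0 passed; 3 were fitted higher and 1 lower, with a median log2 fold change of 0.32, or -0.05 with 2 of 4 higher without shMCU replicate 3. With library totals alone 2 of the 4 were higher, with a median of 0.08, against a median of -0.24 and 24 higher among all 79. Of the 4 tested, miR-7641, whose sequence resembles ribosomal RNA, had 2893 ± 1112 CPM in shMCU and 2021 ± 768 CPM in shNC libraries (SD, n = 3 each), with a fold of 1.66 (0.94 to 2.96). miR-1246, which resembles a small nuclear RNA, had a fold of 1.06 (0.71 to 1.59), and miR-6087, another annotation of ribosomal type, had a fold of 0.90 (0.31 to 2.61). The log2 fold change of miR-1246 was -0.14 with library totals alone and -0.12 without shMCU replicate 3. The part of mitochondrial or other RNA fragments in these counts was not tested, as the tables hold counts per name and no reads.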

How the data were processed

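Small RNA libraries of exosomes were deposited as 1 table per library. Each deposited table holds read counts, as whole numbers without normalization by the authors, for mature miRNAs; this was read from the values, which sum to different totals. Per the submitters' processing notes, Bowtie and hg19 were used. Its version, the mismatches allowed, the handling of multiple matches, the counting tool, the miRNA release and whether the mitochondrial chromosome was a target were not stated. Coordinates and sequences are those of GRCh38 (GENCODE release 29 and RefSeq); none was converted.

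The comparison used the robust quasi-likelihood F test of edgeR 4.0.16 (R 4.3.3) with TMM scaling and group as the only term. The filter filterByExpr with a minimum count of 10 kept 79 of 503 miRNAs, which held 95.5% to 96.6% of each library's counts. Adjustment was by Benjamini-Hochberg with a threshold of 0.05. The test was also run on simulated counts with planted changes larger than those fitted for miR-4461 and miR-4485, so its power at their size was not examined. SE was taken as the size of the log2 fold change over √F. Printed CPM are not TMM-scaled unless stated. DESeq2 1.42.0 was an alternative; single values were compared by exact permutation (scipy 1.17.1). Named were the 3 annotations, full-length mitochondrial matches with at most 1 mismatch, the 3 tested miRNAs most like each tested annotation (log2 CPM, prior count 2) and the 3 most abundant of each of the lists. The annotations and lists were chosen with earlier results of these data known.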

Additional observations from a re-analysis of the deposited data

How the results depend on the processing

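Limits: totals of 11563 to 47863 counts leave wide counting errors on miR-4461 and miR-4485, and miR-1973 could not be compared. The adjusted p of miR-4461 ranged from 0.42 to 0.99 over the alternatives, its log2 fold change from 0.44 to 0.77, and its sign held in each. For miR-4485 the adjusted p ranged from 0.56 to 0.99. Calls at an adjusted p of 0.05 numbered 0 in the test reported, 1 with DESeq2 (miR-122-5p) and 1 with no filter (miR-375, whose shMCU replicate 2 library held 15 counts; both were named after their values were seen); the cause was not tested. Each library left out in turn gave 0 calls, log2 fold changes from 0.48 to 0.77 for miR-4461 and from -0.60 to 0.17 for miR-4485, and CPM differences from 386 to 1292 for miR-4461, from -499 to 80.7 for miR-4485 and from -63.8 to 22.7 for miR-1973. The upper ends of miR-4485 (0.17 and 80.7) were those without shMCU replicate 3, and that of miR-1973 was without shNC replicate 2, which holds 2 of its 3 counts. The CPM difference of miR-4461 was 386 without shMCU replicate 1 and 891 with all libraries. The joint share differed by -0.0136 to 0.105 percentage points, and by 0.299 where the 10 most abundant miRNAs were left out of the denominator, which is smaller by construction. The correlation of miR-4461 with miR-4485 was -0.17 after TMM scaling and -0.039 on log2 CPM. Deviations from the group means correlated at 0.17, -0.35 and 0.09 for equal replicate numbers, and at -0.33 to 0.29 for unequal ones. With 3 libraries per group this cannot exclude a pairing by replicate number. A replicate block gave 0 calls and log2 fold changes of 0.65 for miR-4461 and -0.28 for miR-4485, and changed no call. Leaving libraries out for the balance of miR-4485 and miR-4461 was chosen after seeing the data and gave -15.6 to -5.33 percentage points.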
